A study of Mus musculus with 12 samples.

Results

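The rows described here are the mature arms of 3 miRNA families linked to epithelial repair, colitis and colon cancer, namely miR-31, miR-135 and miR-203. They were chosen by name, and all 6 rows listed (mmu-mir-31-5p, mmu-mir-31-3p, mmu-mir-135a-5p, mmu-mir-135b-5p, mmu-mir-203-3p and mmu-mir-203-5p) were present among the 1978 mature miRNAs of the count table. Small RNA was sequenced from whole colon tissue and whole blood of the same 6 wild-type C57BL/6 male mice, which were 8 weeks old when obtained. The 3 DSS mice (1, 7 and 9) drank water with 1.5% (wt/vol) dextran sulfate sodium (DSS), a polysaccharide that injures the colonic epithelium, for 7 days and were sacrificed on day 8. The 3 control mice (2, 4 and 8) were given no DSS and were kept for the same length of time. All 6 were picked from 10 mice by their disease activity index, so the DSS mice are not a random draw of treated animals. The disease state field of the sample labels instead marks mice 1, 2 and 4 as diseased and mice 7, 8 and 9 as controls. The grouping used here is the one in the study's heatmaps and principal component plots, and the values under the other grouping are given in the last paragraph. The labels also name opposite tissues in 2 fields, and the per-tissue tables of the authors, which hold the libraries titled MC as colon and the others as blood, settle that point.

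A miRNA precursor is a hairpin with a 5p and a 3p arm, and usually 1 arm is kept as the mature strand while the other is degraded. The kept strand guides the silencing complex to mRNAs, mainly through its seed, bases 2 to 8 from the 5′ end. miR-31 is known as a miRNA of epithelial stem cells and regeneration and is raised in colorectal tumours. miR-135a and miR-135b share a seed and are known as regulators of the APC mRNA, a brake on Wnt signalling. miR-203 is abundant in stratified epithelium, where it limits the proliferative capacity of progenitor cells through the p63 mRNA.

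The mature sequences are shown because the seed sets the family to which an arm belongs. They come from RefSeq (GRCm38.p6), which matched 5 of the 6 members, and miR-135b-5p is named only. The seed is in capitals.
miR-31-5p: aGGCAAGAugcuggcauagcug
miR-31-3p: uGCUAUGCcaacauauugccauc
miR-135a-5p: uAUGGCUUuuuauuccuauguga
miR-203-3p: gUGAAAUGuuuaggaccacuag
miR-203-5p: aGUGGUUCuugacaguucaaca
Within the deposited sequences, miR-135a-5p and miR-135b-5p have the same bases 2 to 8 and differ at 1 base in all, so reads with a sequencing error can be assigned to the wrong one. The seeds of the other members listed in these sequences are shared with 0 other miRNAs.

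On GRCm38, Mir31 lies on chromosome 4 from 88910557 to 88910662 on the minus strand, in an exon of the long noncoding RNA AL805899.1. miR-135a-5p is encoded by a pair of precursors that its reads cannot tell apart. Mir135a-1 lies on chromosome 9 (106154124 to 106154213, plus strand), opposite an exon of Glyctk and in an intron of the noncoding D030055H07Rik, and Mir135a-2 on chromosome 10 (92072086 to 92072185, minus strand) in an intron of the noncoding RNA Rmst. Mir135b lies on chromosome 1 (132198088 to 132198184, plus strand) in an intron of Lemd1 and of AC124108.1. Mir203 lies on chromosome 12 (112130880 to 112130955, plus strand), outside annotated genes and 3321 bp from the protein-coding gene Aspg. The opposite strand there holds the precursor of miR-203b, and miR-203b-3p overlaps miR-203-5p over 20 bases.

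The colon libraries held between 15060553 and 20106226 counts each and the blood libraries between 21127134 and 32944792. A single mature sequence, counted under the names miR-486a-5p and miR-486b-5p, held 74.7% to 83.0% of the blood counts when both rows were summed. Levels are CPM, counts per 1000000 of the library total after scaling with TMM factors, separately in each tissue unless stated. The miR-486 rows were nearly level in blood (average log2 CPM 18.59 and 18.63), so the same reads may be counted under both names. The paper also gives fewer mapped reads per sample than the blood totals. Shared reads would inflate these totals and the miR-486 share, and blood levels in CPM would then be too low. The size of this effect was not tested. Differences were tested with edgeR's quasi-likelihood test over all miRNAs that passed a filter on low counts, and a miRNA was called SDE when its fold change exceeded 1.5 with p no higher than 0.05 after Benjamini-Hochberg adjustment. SE denotes the standard error of the log2 difference. In colon, 55 of 542 miRNAs tested were SDE (10.1%), and this count fell to 0 when control mouse 2, 4 or 8 or DSS mouse 7 was left out. In blood, 0 of 484 were SDE, with 56 at an unadjusted p under 0.05, 25 SDE without the filter and 10 SDE with DESeq2's Wald test (3.39% of the 295 with an adjusted p). Of 9 epithelial miRNAs, 4 (miR-141-3p, miR-192-5p, miR-194-5p and miR-429-3p) were SDE and lower in the DSS colon and 0 were higher (7 lower with DESeq2 and 8 without the filter), with a median log2 fold change of -1.08 beside 0.04 over all miRNAs. Of 7 leukocyte miRNAs, 3 (miR-146a-5p, miR-155-5p and miR-223-3p) were SDE and higher there (4 with DESeq2 and 5 without the filter). None of the other lists had an SDE member in colon in these 3 fits. These were 6 miRNAs of muscle and stroma, 3 of erythroid cells, and miR-126a-3p and miR-122-5p as single markers of endothelium and hepatocytes. All of the lists were chosen with earlier results of these data known, so their counts are descriptions.

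In colon 5 of the 6 members had counts, and their levels lay far apart. miR-203-3p was by far the most abundant, at 731 ± 232 CPM (SD, n = 6 libraries), which ranked 70 among the 1300 miRNAs with a count. miR-135a-5p followed at 3.31 ± 0.866 CPM, rank 359. miR-31-5p (1.00 ± 0.555 CPM), miR-135b-5p (0.670 ± 0.261 CPM) and miR-203-5p (0.503 ± 0.236 CPM) came next, and the ranges of these 3 overlapped. In blood the order changed. miR-203-3p was 11.8 ± 2.96 CPM and miR-31-5p was 5.65 ± 1.60 CPM (SD, n = 6), while the other members were at or near 0. The mature arms are 22 or 23 bases long, so no correction for length was made.

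**Figure D1:**
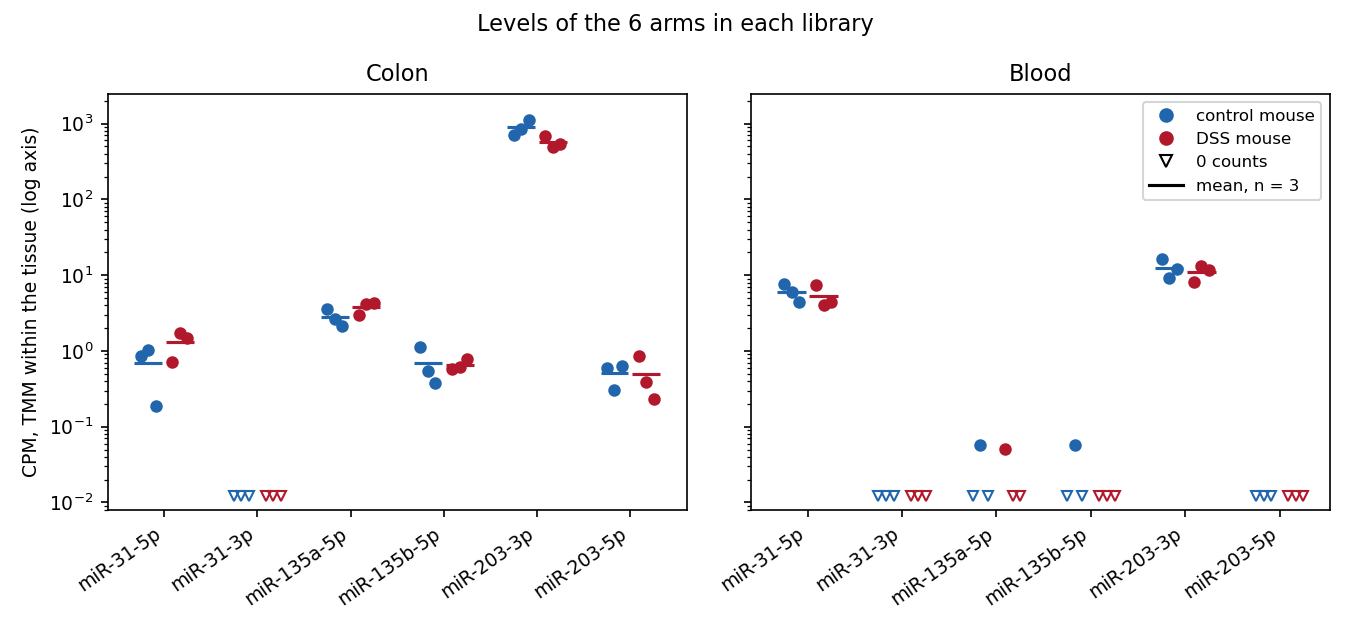
Level of each arm in CPM (log axis, scaled separately in each tissue) in the 6 colon and the 6 blood libraries, with 1 point per library, control mice in blue and DSS mice in red, and a line at the mean of 3 mice where all 3 had counts; open triangles mark 0 counts. miR-203-3p is the only member above 100 CPM, and only in colon, while miR-31-5p is the only member whose blood points all lie above its colon points.

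In the colon of DSS mice none of the 4 members tested was SDE, where 10.1% of all miRNAs tested were. The nearest was miR-203-3p. Its counts were 9568, 8609 and 13875 in DSS mice 1, 7 and 9 and 10508, 14225 and 17873 in control mice 2, 4 and 8. After scaling these became 686, 485 and 537 CPM against 700, 859 and 1120 CPM. On this scale every DSS mouse was below every control mouse, although DSS mouse 1 and control mouse 2 were nearly level, and the groups did not overlap in 38.6% of all miRNAs tested. With total counts alone the groups overlapped, since DSS mouse 9 was at 690 CPM and control mouse 2 at 685 CPM, while 37.8% of miRNAs did not overlap on that scale. The means were 569 ± 104 CPM and 893 ± 212 CPM (SD, n = 3 each), and the log2 fold change was -0.65 (SE 0.21, adjusted p = 0.0890 with edgeR). The call depended on the tool and filter, since miR-203-3p was SDE with DESeq2's Wald test (log2 fold change -0.72, adjusted p = 0.0215), as were 13.7% of the 540 miRNAs with an adjusted p, and with edgeR without the filter on low counts (adjusted p = 0.0422), as were 5.85% of 1300. DESeq2's Wald test is the test the study itself used. The direction of miR-203-3p was the same under each scaling and with each mouse left out, when the log2 fold change ran from -0.82 to -0.47. Scaling by total counts alone moved the median of all colon miRNAs from 0.04 to 0.26, and relative to that median miR-203-3p was -0.69 under both scalings.

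The summed level of the 9 epithelial miRNAs moved in the same direction as miR-203-3p. Its range was 55653 to 136222 CPM in the DSS colon and 163013 to 204162 CPM in the control colon, and each of the 9 had counts in both groups. The summed level of the 7 leukocyte miRNAs was 1396 to 2605 CPM against 917 to 1298 CPM, and that of the endothelial miR-126a-3p was 6719 to 7212 CPM against 5045 to 5453 CPM. The groups did not overlap for any of these 3 levels, with TMM factors or with total counts alone. In bulk tissue, fewer cells of a type and less RNA per cell cannot be told apart, and the part of these lists in the level of miR-203-3p was not tested. Within a library, the count of miR-203-3p relative to the summed epithelial counts does not depend on scaling. Its log2 ratio was -7.63, -7.36 and -6.70 in DSS mice 1, 7 and 9 and -7.86, -7.89 and -7.37 in control mice 2, 4 and 8. The ratio was thus higher on average in DSS mice by 0.48 on the log2 scale, with overlapping groups (exact permutation test, two-sided, p = 0.2, adjusted p = 0.5 over the 5 ratios that could be tested). The difference was 0.21 without DSS mouse 9, the lowest value with a mouse left out, and 0.68 without DSS mouse 1, the highest. The smallest p that 3 mice against 3 allow is 0.1.

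**Figure D2:**
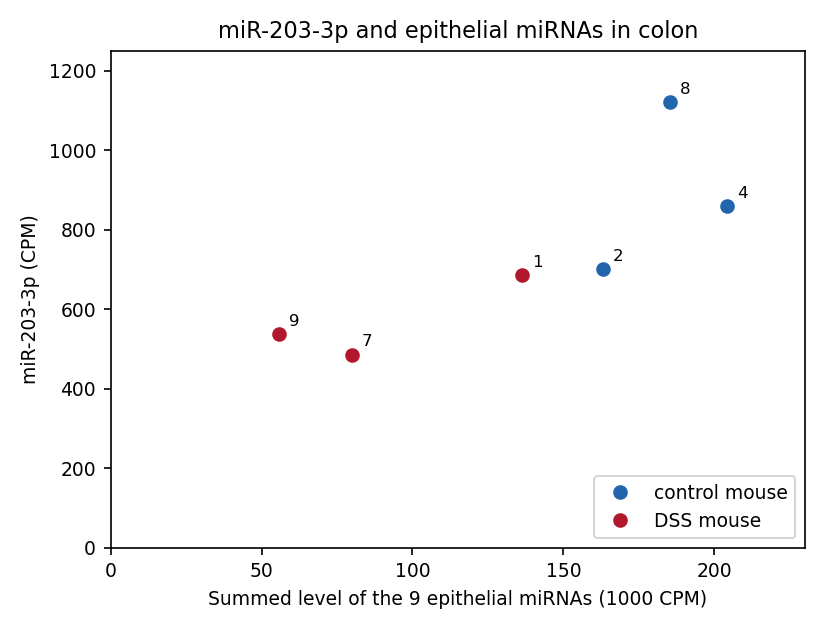
Level of miR-203-3p in CPM against the summed level of 9 epithelial miRNAs in units of 1000 CPM, with 1 point per colon library and the number of the mouse beside it. On this scale the DSS mice lie lower on both axes than the control mice, with DSS mouse 1 and control mouse 2 close together. With total counts alone the groups overlap in miR-203-3p.

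miR-203-5p, the other arm of the same hairpin, had 12, 7 and 6 counts in the colon of DSS mice 1, 7 and 9 and 9, 5 and 10 counts in control mice 2, 4 and 8. It was too low for the filter, and without it the log2 fold change was -0.13 (SE 0.56, adjusted p = 0.930 with edgeR). The groups overlapped, and the counts summed to 25 in DSS mice and 24 in controls. In each colon library there were 0.351 to 1.25 counts of the 5p arm per 1000 counts of the 3p arm. miR-203b-3p, from the opposite strand, passed the filter and had 21, 15 and 38 counts in the DSS mice and 8, 13 and 15 in the controls. Its log2 fold change was 0.75 (SE 0.36, adjusted p = 0.195 with edgeR), opposite in sign to that of miR-203-3p, and the groups overlapped.

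miR-31-5p, the regeneration miRNA of the set, was rare in colon. It had 10, 31 and 38 counts in DSS mice 1, 7 and 9 and 13, 17 and 3 counts in control mice 2, 4 and 8. The levels were 0.717, 1.75 and 1.47 CPM against 0.867, 1.03 and 0.188 CPM. Mice 7 and 9 were above all controls and mouse 1 was below 2 of them, so the groups overlapped. The log2 fold change was 0.93 (SE 0.58, adjusted p = 0.306 with edgeR), which did not pass the test. It was 0.47 without control mouse 8, the library with 3 counts, and 1.31 without control mouse 4. Pooled over mice, the total-scaled counts were 2.35 times higher in the DSS colon, with a 95% exact interval of 1.55 to 3.64 that covers counting error only and not the differences between mice. miR-31-3p had 0 counts in all 12 libraries. Taking 3 counts of the summed totals, without scaling, this allows up to 0.0290 CPM in colon and 0.0191 CPM in blood. The blood limit would be higher if the blood totals count miR-486 reads under both names.

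Of the miR-135 arms, miR-135a-5p had 42, 74 and 112 counts in DSS mice 1, 7 and 9 and 53, 44 and 34 in control mice 2, 4 and 8. The levels were 3.01, 4.17 and 4.33 CPM against 3.53, 2.66 and 2.13 CPM. Again mice 7 and 9 were above all controls and mouse 1 was among them. The log2 fold change was 0.47 (SE 0.26, adjusted p = 0.261 with edgeR), and 0.29 to 0.66 with each mouse left out. miR-135b-5p had 8, 11 and 20 counts in the DSS mice and 17, 9 and 6 counts in the controls. Its log2 fold change was -0.03 (SE 0.46, adjusted p = 0.967 with edgeR), the sign turned to 0.19 with total counts alone, and relative to the median miRNA it was -0.07 under both scalings. In each colon library miR-135b-5p made up 12.9% to 24.3% of the counts of both arms.

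Relative to the summed epithelial miRNAs of the same library, miR-135a-5p was higher in every DSS colon than in every control colon, and on this ratio the groups did not overlap in 65.9% of the 454 miRNAs with at least 10 counts in every colon library. The log2 ratios were -15.47, -14.22 and -13.65 in DSS mice 1, 7 and 9 and -15.49, -16.23 and -16.41 in control mice 2, 4 and 8. The difference of 1.60 on the log2 scale has an exact permutation p of 0.1, two-sided, the smallest possible here, and an adjusted p of 0.5 over the 5 ratios. It ran from 1.20 to 2.11 with each mouse left out. Mouse 1 and mouse 2 again lay next to each other. The epithelial counts in the denominator were themselves lower in DSS mice, so the ratio combines both changes.

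In colon the opposite arms from the miR-135a precursors were rarer than miR-135a-5p, and for the arm of Mir135a-1 the DSS and control colons stood apart. The sequences of both are shown because they tell the precursors apart, which the 5p arm cannot.
miR-135a-1-3p: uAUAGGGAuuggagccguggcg
miR-135a-2-3p: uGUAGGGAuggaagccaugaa
miR-135a-1-3p had 20, 9 and 21 counts in the colon of DSS mice 1, 7 and 9 and 3, 2 and 2 counts in control mice 2, 4 and 8. The groups did not overlap, as in 20.6% of the 1300 miRNAs with a count in colon. The row was below the filter on low counts, and in edgeR without that filter, where 5.85% of 1300 miRNAs were SDE, it was SDE and higher in DSS mice (log2 fold change 2.54, SE 0.61, adjusted p = 0.00891). DESeq2 gave it a log2 fold change of 2.55 and, because of its low counts, no adjusted p. The pooled total-scaled ratio was 7.00 (95% exact interval 3.16 to 18.3, counting error only) and 5.91 to 8.58 with each mouse left out. miR-135a-2-3p had 6, 5 and 2 counts in the DSS colons and 0, 1 and 2 in the control colons, and these groups overlapped. In blood miR-135a-1-3p had 22, 4 and 3 counts in DSS mice 1, 7 and 9 and 3, 1 and 3 in control mice 2, 4 and 8. In total it had 36 counts over the 6 blood libraries, against 3 for miR-135a-5p. The pooled ratio there was 3.62 and rested on DSS mouse 1, without which it was 1.36. In edgeR without the filter the log2 fold change in blood was 1.50 (SE 0.81, adjusted p = 0.631), where 2.23% of 1121 miRNAs were SDE. miR-135b-3p had at most 1 count in any library, and miR-203b-5p had 0 in all.

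In blood 2 of the 6 members passed the filter and neither was SDE, as for all other miRNAs tested (0% called). miR-31-5p had 297, 124 and 95 counts in DSS mice 1, 7 and 9 and 168, 105 and 131 counts in control mice 2, 4 and 8. The levels of 7.48, 3.999 and 4.39 CPM overlapped with those of the controls, 7.55, 6.04 and 4.44 CPM. The log2 fold change was -0.18 (SE 0.33, adjusted p = 0.924 with edgeR). miR-203-3p had 326, 414 and 253 counts in the DSS mice and 366, 159 and 353 in the controls, or 8.21, 13.4 and 11.7 CPM against 16.4, 9.15 and 11.98 CPM. The groups overlapped here too, with a log2 fold change of -0.18 (SE 0.30, adjusted p = 0.902 with edgeR). DSS and control blood stood fully apart for 17.4% of all tested rows, which include neither member. The direction of either arm turned when single mice were left out.

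miR-135a-5p had 2 counts in blood of DSS mouse 1 and 1 count in control mouse 4, miR-135b-5p had 1 count in control mouse 4, and miR-203-5p had none. DSS effects on these arms in blood were not detectable at this depth.

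**Figure D3:**
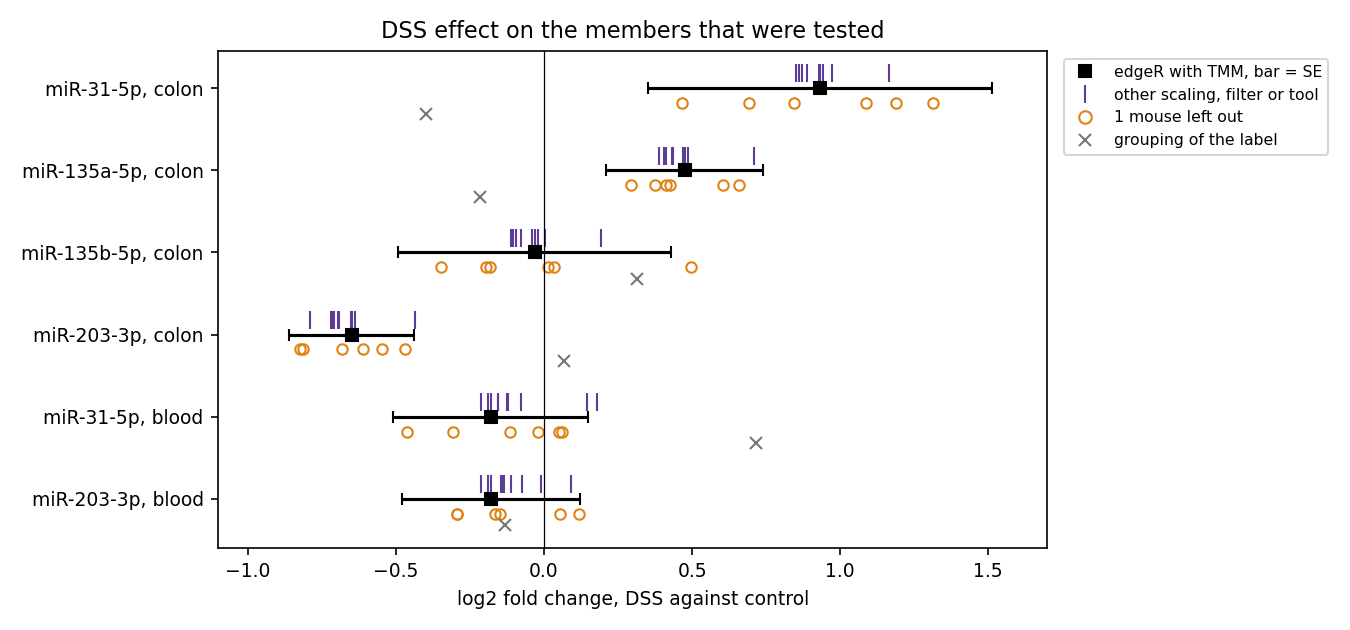
Log2 fold change between DSS and control mice (x axis) for the 4 members tested in colon and the 2 tested in blood. Black squares are the edgeR values with their standard errors, purple ticks are other scalings, filters and tools, open circles leave out 1 mouse each, and grey crosses use the grouping of the disease state label. miR-203-3p in colon stays below 0 in all but the last of these.

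The DSS effect was compared between tissues in 1 fit over all 12 libraries. For miR-31-5p the effect in colon minus that in blood was 0.71 on the log2 scale (SE 0.70, adjusted p = 0.673 with edgeR). For miR-203-3p the difference was -0.78 (SE 0.43, adjusted p = 0.432 with edgeR). Neither passed the threshold, and 0 of the 680 miRNAs tested did (0%), with 94 at an unadjusted p under 0.05. Both sizes depended on single mice and on the scaling, while neither of these turned the signs. The difference for miR-31-5p was 0.26 without DSS mouse 7, 0.36 without DSS mouse 9, 0.46 without control mouse 8, 1.17 without control mouse 4 and 1.50 without DSS mouse 1, and it was 1.21 with RLE factors. That for miR-203-3p was -0.49 without DSS mouse 7, -1.01 without DSS mouse 1 and -1.11 without control mouse 2, with adjusted p of 0.715, 0.368 and 0.550 (edgeR), and it was -0.40 with RLE factors and -0.42 with total counts alone. The median of all miRNAs was -0.22 with TMM factors, 0.18 with RLE factors and 0.10 with total counts alone. Relative to that median miR-31-5p was 0.93, 1.03 and 0.92 under these scalings, and miR-203-3p was -0.57, -0.58 and -0.53. With the mouse as a replicate block the differences were 0.94 for miR-31-5p and -0.79 for miR-203-3p.

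Between the tissues themselves the members differed by large amounts and in opposite directions. miR-31-5p and miR-203-3p, the members that passed the filter in each tissue alone, were both SDE in blood against colon, as were 88.7% of all miRNAs tested. miR-31-5p was higher in blood by 3.30 on the log2 scale (SE 0.37, adjusted p = 4.72e-07 with edgeR), and higher in blood than in colon in 6 of 6 mice. Of the set, it was the member whose level was not highest in the tissue that contains epithelium. miR-203-3p was lower in blood by a log2 difference of -5.17 (SE 0.26, adjusted p = 4.04e-11 with edgeR), again in 6 of 6 mice. The median of all miRNAs was -0.86 with TMM factors and -1.59 with total counts alone. Relative to that median miR-31-5p was 4.16 and 4.14 higher under these scalings, and miR-203-3p was -4.31 under both. The other 3 members with a count rest on few or no blood counts. They passed the filter over all 12 libraries only through colon, where they are higher, so their differences are given as descriptions with no test. miR-135a-5p had 359 counts over the 6 colon libraries and 3 over the 6 blood libraries, a TMM-scaled ratio of colon to blood of 106 (95% exact interval 36.1 to 519, counting error only). With total counts alone this ratio was 182. Of the 3 blood counts, 2 came from DSS mouse 1 and 1 from control mouse 4, and the fitted log2 difference of -6.43 became -7.85 without mouse 1 and -7.48 without mouse 4. miR-135b-5p had 71 and 1, a ratio of 63.1 (11.0 to 2529), or 108 with total counts alone. Its fitted log2 difference of -5.50 became -6.61 without control mouse 4, which held the single blood count. miR-203-5p had 49 and 0. Taking 3 counts over the 6 blood libraries as the limit, it was at least 14.5-fold higher in colon. With total counts alone this was at least 24.9-fold. The ratios with total counts alone would be lower if the blood totals count miR-486 reads under both names.

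The count of miR-31-5p relative to miR-203-3p in the same library shows this reversal without any scaling. There were 1.05, 3.60 and 2.74 counts of miR-31-5p per 1000 counts of miR-203-3p in the colon of DSS mice 1, 7 and 9, and 1.24, 1.20 and 0.168 in control mice 2, 4 and 8. In blood there were 911, 300 and 375 in the DSS mice and 459, 660 and 371 in the controls. The lowest blood library was thus far above the highest colon library. In blood the ratio did not separate DSS from control mice (difference of -0.04 on the log2 scale, exact permutation test, two-sided, p = 1, adjusted p = 1). In colon it was not tested, because miR-31-5p had fewer than 10 counts in control mouse 8. The ratios of miR-31-5p and miR-203-3p to the summed epithelial miRNAs in blood differed between DSS and control mice by 0.04 and 0.08 (exact permutation p = 0.9 and 0.7, adjusted p = 1 for both). The summed epithelial level in blood, the denominator of both ratios, was 950 to 1123 CPM in the DSS mice and 1129 to 1324 CPM in the controls. The groups did not overlap on this scale but did with total counts alone (981 to 1261 CPM against 829 to 1493 CPM), and all 9 log2 fold changes with edgeR after the filter were below 0 (median -0.26, beside -0.05 over all miRNAs). None of the 9 was SDE in blood with edgeR, with or without the filter, and miR-215-5p was lower with DESeq2 (log2 fold change -0.80, adjusted p = 0.0485). The part of this sum in the ratios was not tested. The single markers of endothelium and hepatocytes were also lower in every DSS blood than in every control blood under both scalings, at 13.4 to 16.1 CPM against 30.8 to 56.6 CPM for miR-126a-3p and 6.37 to 10.6 CPM against 15.9 to 191 CPM for miR-122-5p. With total counts alone miR-122-5p was nearly level at the edge, at 6.53 to 14.03 CPM against 14.12 to 140 CPM. With TMM factors the groups did not overlap in 17.4% of all miRNAs tested in blood. Neither was SDE with edgeR after the filter (adjusted p = 0.165 for both), but both were without the filter, and with DESeq2 the log2 fold changes were -1.41 (adjusted p = 0.000891) for miR-126a-3p and -3.48 (adjusted p = 1.64e-05) for miR-122-5p. Of all miRNAs in blood, 2.23% were SDE without the filter and 3.39% with DESeq2. The summed levels of the erythroid, leukocyte and muscle and stroma lists overlapped in blood. Of their members, miR-223-3p was SDE and higher with DESeq2 (log2 fold change 1.38, adjusted p = 0.00339). It was also SDE with edgeR without the filter (1.34, adjusted p = 0.00194). miR-214-3p was SDE and lower with edgeR without the filter (-1.43, adjusted p = 0.0367). No other member of these lists was SDE in these fits, and none was with edgeR after the filter.

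**Figure D4:**
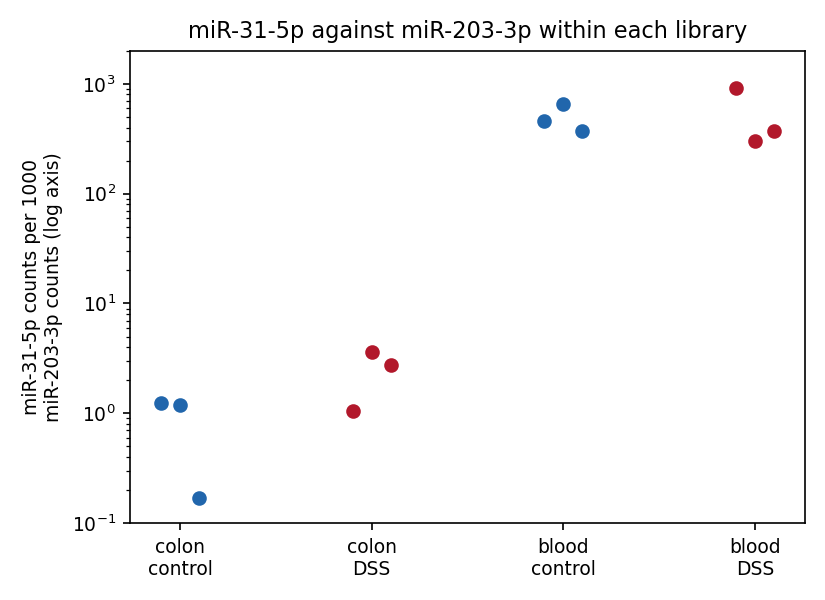
Counts of miR-31-5p per 1000 counts of miR-203-3p (log axis) in each of the 12 libraries, with 3 libraries per group, control mice in blue and DSS mice in red. The colon libraries lie between 0.168 and 3.60 and the blood libraries between 300 and 911.

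The patterns of the members over the 6 colon libraries were compared with those of the other miRNAs tested, as the root mean square difference of mean-centred log2 CPM. The closest to miR-31-5p were miR-188-5p (0.47), miR-363-3p (0.60) and miR-496a-3p (0.61), where the median miRNA was at 1.07. The closest to miR-135a-5p were let-7c-2-3p (0.14), let-7a-1-3p (0.14) and miR-485-3p (0.16), against a median of 0.49. For miR-135b-5p they were miR-1839-3p (0.19), let-7a-1-3p (0.24) and let-7c-2-3p (0.24). For miR-203-3p they were let-7b-5p (0.17), miR-30c-1-3p (0.17) and let-7c-5p (0.18), against a median of 0.57. These values are descriptions over 6 libraries that share the scaling. The rows of let-7a-1-3p and let-7c-2-3p gave identical fits in blood (log2 fold change 0.47, SE 0.39). Both names may therefore count the same reads and not be separate neighbours.

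With the grouping of the disease state label, in which mice 1, 2 and 4 are compared with mice 7, 8 and 9, the log2 fold changes in colon were -0.40 for miR-31-5p, -0.22 for miR-135a-5p, 0.31 for miR-135b-5p and 0.07 for miR-203-3p. All 4 directions were then opposite to those above, with an adjusted p of 0.991 for each (edgeR), and 0 miRNAs of the colon were SDE, with 20 at an unadjusted p under 0.05. Without the filter miR-135a-1-3p was 0.14 in colon (adjusted p = 0.983 with edgeR), and its groups overlapped. In blood miR-31-5p turned to 0.72 (adjusted p = 0.950 with edgeR). The difference of the effect between tissues turned to -1.01 for miR-31-5p and 0.38 for miR-203-3p. Of the ratios, that of miR-135a-5p to the epithelial sum in colon turned to -0.97 with overlapping groups, and that of miR-203-3p turned to -0.65. This last ratio and both blood ratios of miR-31-5p, to miR-203-3p (0.91) and to the epithelial sum (0.72), did not overlap between the label groups (exact permutation test, two-sided, p = 0.1 each, the smallest possible). These p were not adjusted over the ratios, and both blood ratios share the counts of miR-31-5p. The share of all miRNAs that did not overlap under this grouping was not counted. The DSS effects given here therefore depend on the grouping of the study's figures. With DESeq2 and that grouping, miR-192-5p in colon had a log2 fold change of -1.36 (adjusted p = 0.000143). miR-122-5p in blood had -3.48 (adjusted p = 1.64e-05 with DESeq2). Rounded further, these are the values the study lists for these miRNAs. Between blood and colon the grouping mattered little, with 3.21 for miR-31-5p and -5.21 for miR-203-3p.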

How the data were processed

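Small RNA of colon and blood from 6 mice was analysed (12 libraries). The authors trimmed reads with Flexbar, collapsed them with fastx-toolkit, counted them on the mature miRNAs of miRBase (version 22) with the miRDeep2 quantifier, and deposited these counts. They also deposited a normalized signal per tissue, the count divided by a size factor from DESeq2, which was used only in an alternative. Whether counting used the strand is not given in the sources used here. GRCm38 is the build in the submitters' processing notes.

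Counts were tested in R (4.3.3) with edgeR (4.0.16): filterByExpr, TMM factors, glmQLFit and glmQLFTest, in each tissue alone, and over all 12 libraries for contrasts between tissues. SE was taken as |log2 fold change| over the root of the F statistic. Alternatives used DESeq2 (1.42.0), limma (3.58.1) on log2(signal + 1), other scalings and filters, each mouse left out, a block by mouse and the label grouping. Ratios within a library needed 10 counts in both terms. The likeness of patterns used log2(CPM + 0.01). The test code was also run on simulated counts, and that outcome is not reported here. Python (3.11.15) was used for intervals and figures.

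The members and lists were chosen with earlier results of these data known. Named miRNAs are the members, other arms of their families, the marker lists and the 3 closest patterns per member. The colon and blood libraries of a mouse come from the same animal. Their deviations from the group means correlated at -0.30 to 0.16 over 357 miRNAs. No molecular identifiers are named, so intervals and limits cover counting error only.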

Additional observations from a re-analysis of the deposited data

How the results depend on the processing

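In colon, 0 of the members was SDE under 15 of 17 alternatives, and 1, miR-203-3p, was with DESeq2's Wald test (log2 fold change -0.72) and without the filter (-0.65), where 74 of the 540 miRNAs with an adjusted p and 76 of 1300 were SDE. The number of SDE miRNAs in colon, 55 in the main edgeR fit, was 16 with RLE factors, 8 with upper-quartile factors, 0 with all 12 libraries in 1 fit or the grouping of the labels, and 0 to 44 with each mouse left out. The label grouping reversed miR-31-5p (-0.40), miR-135a-5p (-0.22), miR-135b-5p (0.31) and miR-203-3p (0.0674) in colon and miR-31-5p (0.72) in blood. miR-135b-5p also turned with total counts alone (0.19) and with limma (0.00175), and it ran from -0.35 to 0.50 with each mouse left out. The cause of these reversals was not tested.

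In blood, 0 members were SDE under any of 17 alternatives, and 25 miRNAs were SDE without the filter, 10 with DESeq2, 1 with all 12 libraries in 1 fit and 0 to 1 with each mouse left out. miR-31-5p turned with total counts alone (0.14) and in the 12-library fit (0.18), where miR-203-3p also turned (0.0909). Total counts alone moved the median of all blood miRNAs from -0.05 to 0.15. Relative to that median miR-31-5p was -0.13 with TMM factors and -0.01 with total counts alone. With each mouse left out miR-31-5p ran from -0.46 to 0.0613 and miR-203-3p from -0.29 to 0.12.

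Between tissues miR-31-5p and miR-203-3p had the same direction and call under all 11 alternatives, with 2.55 to 3.52 and -5.90 to -5.06. miR-135a-5p (-7.85 to -6.11) and miR-135b-5p (-6.61 to -5.01) could not have turned, since they passed the filter through colon alone. With the replicate block by mouse, which pairs the libraries of an animal, miR-31-5p was 3.33 and miR-203-3p -5.19. For the difference of the DSS effect between tissues, 8 miRNAs were SDE with RLE factors, 1 with the replicate block and 0 to 2 with each mouse left out, and 0 members were under any setting. The label grouping, applied to this difference and to the ratios after seeing the data, reversed the difference for miR-31-5p (-1.01) and miR-203-3p (0.38), the colon ratios to the epithelial sum of miR-135a-5p (-0.97) and miR-203-3p (-0.65), and the blood ratios of miR-31-5p to miR-203-3p (0.91) and of miR-203-3p to the epithelial sum (-0.19). Without 1 mouse, the blood ratios ranged from -0.53 to 0.28 for miR-31-5p to miR-203-3p, -0.30 to 0.22 for miR-31-5p to the epithelial sum and -0.0615 to 0.25 for miR-203-3p to it. Counts of 3 to 38 limit what can be seen of miR-31-5p in colon.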
